A study of Mus musculus with 24 samples.

Results

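NK cells lacking FcRγ (KO) were compared with wild-type (WT) NK cells, both taken from tumour-bearing mouse lung. Of the 24 bulk libraries of the series, 8 are from lung and were chosen by their labels alone: 4 of KO cells and 4 of WT cells, called biological replicates by the submitters. The labels of all 8 give the tissue as derived from tumour-bearing lung, the cell type as NK cell and the treatment as naive. Poly(A) RNA was extracted with a Qiagen RNeasy Plus Micro kit and made into strand-marking NEBNext Ultra II Directional libraries. The strain and age of the mice, the FcRγ allele and the cells it is deleted in, the tumour, the way the cells were sorted and whether each library is a separate animal are details that the sources used here do not give. The p-values therefore measure the spread between these libraries. The other 16 libraries are KO and WT NK cells of the spleen, naive or treated with IL-15, again 4 per group, and they serve here as a comparison.

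NK cells are innate lymphocytes that kill infected and transformed cells and secrete interferon γ and chemokines. FcRγ, encoded by Fcer1g, is a small membrane adaptor with an ITAM, a tyrosine motif that, once phosphorylated, recruits the kinases Syk and ZAP-70. It pairs with the IgG receptor CD16, through which NK cells kill antibody-coated targets, and with the activating receptor NKp46. The other main group of genes in these results is the chaperones. HSP70 proteins with their J-protein partners bind unfolded chains, HSP90 with its co-chaperones finishes and holds client proteins such as kinases and receptors, the ring-shaped chaperonin TRiC folds actin and tubulin, and HSP60 with HSP10 folds proteins inside mitochondria. Many chaperone genes are switched on by HSF1, a factor that binds repeats of the unit GAA or its complement TTC.

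The KO lung libraries held between 24.95 and 26.75 M counts, and the WT lung libraries 9.77, 24.73, 25.27 and 26.98 M. The shallow library, WT lung replicate 1, stood alone on the leading principal component of the 8 libraries (37% of the variance), at 91.1 against −26.8 to −4.3 for the other 7. The NK markers Ncr1, Klrb1c, Klrk1, Klrd1, Eomes, Tbx21, Gzma, Prf1, Nkg7 and Il2rb summed to between 12420 and 14058 CPM in KO libraries and between 13652 and 17145 CPM in WT libraries (exact permutation p = 0.143, adjusted over 17 tests 0.304). CPM here means counts per M counts of a library's total after TMM scaling, which evens out differences in composition. Of the 16 marker lists of NK and other cells, 3 did not overlap between genotypes, and each was higher in KO (exact p = 0.0286, the smallest that 4 against 4 allows, adjusted 0.122). Of all genes tested, 8.72% did not overlap between genotypes in either direction, a share to set beside the gene counts of each list. Macrophage and monocyte markers summed to 148 to 618 CPM in KO and 56.7 to 132 CPM in WT, and 3 of the 10 genes did not overlap (Lyz2, Cd68 and Cd14). B cell markers summed to 136 to 175 CPM in KO and 103 to 130 CPM in WT, mostly from Ighm, and 2 of 8 genes did not overlap (Cd79a and Ighm). ILC1 markers summed to 75.7 to 116 CPM in KO and 41.6 to 55.4 CPM in WT, but Il7r was the only one of 7 that did not overlap. The other lists overlapped, among them T cells, dendritic cells, neutrophils, lung epithelium, fibroblasts and melanocytes. Il22, Il23r and Il17a of ILC3 cells, Fcer1a and Ms4a2 of mast cells and basophils and Lum of fibroblasts were at 0 in all 8 libraries. Other members of these lists were present. Cma1 of the mast cell and basophil list had 208 to 281 CPM in KO and 224 to 465 CPM in WT. Ncr1, which is also on the NK list, made up nearly all of the ILC3 sum. No macrophage or B cell marker passed the test across all genes, and the part of such cells in the results below was not tested. In bulk RNA, more cells of a type and more transcript per cell cannot be told apart.

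Across 13129 genes, edgeR's quasi-likelihood test with Benjamini-Hochberg adjustment called 82 at an adjusted p under 0.05, or 0.625% of those tested: 40 higher in KO lung (0.305%) and 42 lower (0.32%). Most of them fell into a few recognisable groups. Fcer1g and its neighbours on chromosome 1 accounted for 15, protein chaperones for 17, close copies of these chaperones for 8 and genes of the mitochondrial genome for 5. The remainder included Il7r, Kit and Cd3g of the immature NK cell list, which were higher in KO. The gene lists named here and below were chosen with earlier results of these data known. Their counts against all genes are therefore descriptive. In all 82 genes the 4 KO libraries lay wholly above or below the 4 WT libraries, which was true of 8.72% of all genes tested. Differences of at least 2-fold were seen for 22 of the higher and 23 of the lower genes. Without WT lung replicate 1, all 82 still passed and the counts were 251 higher (1.87%) and 197 lower (1.47%) of 13405 tested. The counts were lower without KO lung replicate 2 (16 higher and 25 lower), 3 (17 and 28) or 4 (16 and 31) or WT lung replicate 2 (19 and 31). Of the 82 calls, 40 held whichever of the 8 libraries was left out.

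**Figure D1:**
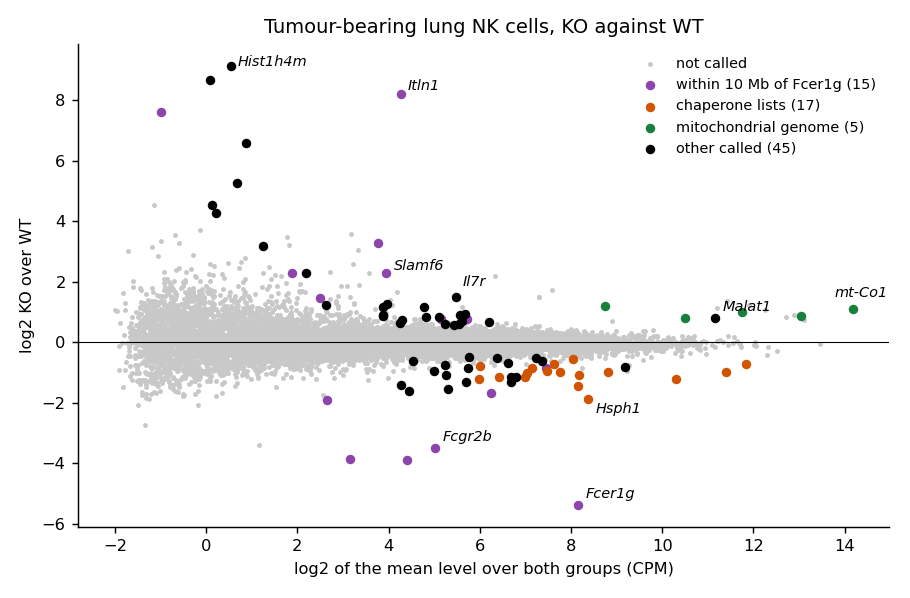
Difference between KO and WT lung (log2, vertical axis) against mean level (CPM on TMM-scaled totals, log axis) for the 13129 genes tested. Grey points did not pass, purple marks the 15 called genes near Fcer1g, orange the 17 called chaperones, green the 5 called mitochondrial genes and black the other 45. The chaperones lie together below zero, between −1.87 and −0.57, and the mitochondrial genes together above it.

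The deleted gene checked the labels. Fcer1g (chr1:171229572-171234365, GRCm38) stood at 15.3, 14.1, 12 and 12.3 CPM in KO lung, against 708, 550, 456 and 521 CPM in WT lung. All 4 KO libraries lay far below all 4 WT libraries. The difference was −5.38 ± 0.17 on the log2 scale (± standard error, n = 4 and 4, adjusted p = 1.05e-08), a level 41.5-fold lower in KO. The receptors known to pair with FcRγ did not pass. Fcgr3, which encodes CD16, stood at 57.6, 47.4, 58.1 and 60.3 CPM in KO and at 77.8, 63.4, 46.9 and 59.2 CPM in WT (−0.14 ± 0.15, adjusted p = 0.744). Ncr1, which encodes NKp46, had 494 to 507 CPM in KO and 419 to 544 CPM in WT (0.08 ± 0.11, adjusted p = 0.824). Cd247, the CD3ζ chain, another ITAM adaptor that pairs with NKp46, had 163 to 199 CPM in KO and 146 to 218 CPM in WT (−0.07 ± 0.13, adjusted p = 0.867). The groups overlapped for all 3 genes. Of 14 tested adaptors and Fc receptors, the ones called were Fcer1g and Fcgr2b, both lower, and the list's median was −0.06 against 0.0 over all genes (2 genes were higher without WT lung replicate 1, and the median was 0.12). None of 40 genes of ITAM and calcium signalling passed, against 0.625% of all genes tested, with a median of 0.06. Syk stood at 0.02 ± 0.12 and Zap70 at 0.24 ± 0.10 (adjusted p = 0.977 and 0.395).

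Within 10 Mb of Fcer1g, 15 of 154 tested genes were called, against 0.625% over all genes. With Fcer1g included, 8 were higher and 7 lower, and all 15 lay between positions 170232749 and 173766876 of chromosome 1. This stretch holds the Fc receptors, the SLAM receptors and the HIN-200 family, groups of related immune genes that sit side by side in the mouse genome. Several had large differences. Itln1, an intelectin that binds microbial sugars, stood at 39.5, 38.0, 36.6 and 39.1 CPM in KO and at 0.110, 0, 0.374 and 0 CPM in WT (8.21 ± 0.46, adjusted p = 1.86e-06). With so few counts in WT, the log2 difference ran from 7.7 to 10.79 when a library was left out. The transcript was thus nearly absent from all WT libraries and even among the KO libraries. Beyond the 10 Mb, chromosome 1 held further calls, 20 in all with these 15. Cacybp, Bpnt1 and Nmnat2 lay at −11.03, 14.1 and −18.27 Mb from the start of Fcer1g, and the chaperones Hspd1 and Hspe1 at −116.15 and −116.14 Mb.

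Fcgr2b, the inhibitory receptor for IgG, had 5.93, 5.16, 4.82 and 5.05 CPM in KO lung, against 48.3, 65.4, 56.9 and 68.6 CPM in WT lung (−3.51 ± 0.15, adjusted p = 7.7e-08). Its transcript matches that of Fcgr3 at 96.3% identity over 14.4% of its length. SLAM receptors are surface proteins of lymphocytes that bind each other or their relatives and signal through the small adaptors SAP and EAT-2. Slamf6, which binds itself, stood at 20.5, 22.4, 26.0 and 33.0 CPM in KO and at 6.84, 5.85, 5.49 and 3.32 CPM in WT (2.27 ± 0.23, adjusted p = 0.000563). Cd244, the receptor of CD48, had 134, 122, 112 and 129 CPM in KO and 240, 254, 213 and 204 CPM in WT (−0.87 ± 0.11, adjusted p = 0.00243). The 2 receptors thus differed in opposite directions, with no overlap of libraries in either.

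Both EAT-2 adaptors that SLAM receptors use in mouse NK cells were higher in KO. Sh2d1b1 stood at 72.9, 62.4, 69.7 and 63.0 CPM in KO and at 43.7, 37.8, 33.6 and 41.5 CPM in WT (0.78 ± 0.11, adjusted p = 0.00646). Sh2d1b2 stood at 5.89, 5.39, 5.02 and 8.11 CPM in KO and at 1.99, 0.791, 0.934 and 1.48 CPM in WT (2.29 ± 0.34, adjusted p = 0.00672). Of 10 tested genes of the SLAM family and its adaptors, 3 were higher and 1 lower (against 0.305% and 0.32% over all genes). Those that did not pass included Cd48 (−0.23 ± 0.13, adjusted p = 0.521), the ligand of Cd244, and Ly9 (−0.07 ± 0.12, adjusted p = 0.846). Fcrl6, a relative of the Fc receptors, had 7.43, 7.86, 7.75 and 10.2 CPM in KO and 2.21, 3.32, 3.51 and 2.85 CPM in WT (1.46 ± 0.22, adjusted p = 0.00856). Its adjusted p was 0.0588 without KO lung replicate 4. Dusp23, a small protein phosphatase, had 2.85, 2.16, 2.57 and 2.78 CPM in KO and 15.7, 6.25, 7.55 and 10.5 CPM in WT (−1.93 ± 0.29, adjusted p = 0.00785, and 0.0517 without KO lung replicate 2). Gm9765, a predicted gene beside Itln1, had between 0.775 and 1.18 CPM in KO and no count in WT, at least 29.9-fold higher when 3 counts over the group are taken as the floor, and its call was lost in 5 of the 8 leave-outs (largest adjusted p 0.0887).

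The HIN-200 and pyrin-domain family, whose members bind DNA or act in innate immune sensing and interferon responses, split in both directions. Gm4955 stood at 2.29, 3.11, 2.61 and 2.63 CPM in KO and at 32.6, 39.2, 41.6 and 44.8 CPM in WT (−3.89 ± 0.16, adjusted p = 7.7e-08). Pydc4 stood at 1.13, 1.03, 0.816 and 1.57 CPM in KO and at 11.6, 16.7, 16.5 and 21.8 CPM in WT (−3.88 ± 0.27, adjusted p = 1.23e-05). Both were thus low in every KO library. Pyhin1 had 35.1, 40.9, 31.7 and 37.7 CPM in KO and 124, 116, 108 and 114 CPM in WT (−1.67 ± 0.11, adjusted p = 9.48e-06). Ifi204 went the other way, with 24.4, 26.2, 19.5 and 27.7 CPM in KO and 4.86, 2.41, 2.47 and 1.23 CPM in WT (3.26 ± 0.32, adjusted p = 0.000384). Aim2, the sensor of cytosolic DNA that builds an inflammasome, had 43.5, 49.1, 42.1 and 41.9 CPM in KO and 27.6, 23.3, 24.7 and 29.6 CPM in WT (0.75 ± 0.12, adjusted p = 0.00865, and 0.0599 without KO lung replicate 2). Of 9 tested family members, 2 were higher and 3 lower (against 0.305% and 0.32% over all genes), and Ifi203 stood at −0.08 ± 0.10 (adjusted p = 0.805). Members of this family resemble each other, so their separate values are uncertain: Pyhin1 matches Ifi214 at 96.9% identity over 56.6% of its transcript, and Ifi204 matches Ifi211 at 96.9% over 59.4%.

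**Figure D2:**
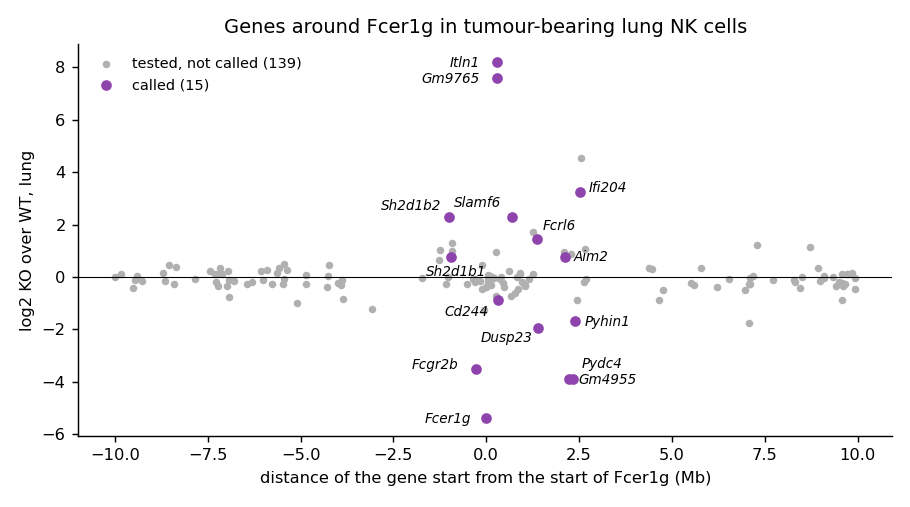
Difference between KO and WT lung (log2) against distance from the start of Fcer1g (Mb) for the 154 tested genes within 10 Mb on chromosome 1. Filled points are the 15 called genes and grey points the 139 that did not pass. The called genes lie from 1.0 Mb before to 2.52 Mb after Fcer1g, on both sides of zero, with Itln1 highest at 8.21 and Fcer1g lowest at −5.38.

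Away from Fcer1g, the largest group was the chaperones, and the members called with all 8 libraries were lower in KO. Of 110 tested genes in 6 chaperone lists, 17 were called lower and none higher, against 0.32% lower over all genes. Without WT lung replicate 1 the counts were 36 lower and 2 higher, against 1.47% and 1.87% over all genes. The lists were chosen with earlier results of these data known, so these shares describe them and are not a test. The lists' common median was −0.26, with 94 of 110 below zero, against 0.0 over all genes. The promoters of some of these genes hold dense runs of the HSF1 unit. Those of Hsph1, Hspd1 and Chordc1 are shown because each holds a run of at least 3 alternating units, the arrangement HSF1 is known to bind best. They are RefSeq windows on GRCm38.p6 from 250 bases before to 50 bases after the gene's start, written along the gene's strand, with matches to GAANNTTC or TTCNNGAA (N is any base) in capitals. They run over chr5:149636266-149636565 (minus strand), chr1:55087883-55088182 (minus strand) and chr9:18292017-18292316 (plus strand).
Hsph1: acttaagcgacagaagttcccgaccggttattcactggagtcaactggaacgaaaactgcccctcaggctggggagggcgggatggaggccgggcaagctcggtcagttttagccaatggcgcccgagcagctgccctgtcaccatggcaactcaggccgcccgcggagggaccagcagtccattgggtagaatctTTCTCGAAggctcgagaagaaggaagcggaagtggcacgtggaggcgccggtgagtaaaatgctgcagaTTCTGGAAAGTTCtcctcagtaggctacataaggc
Hspd1: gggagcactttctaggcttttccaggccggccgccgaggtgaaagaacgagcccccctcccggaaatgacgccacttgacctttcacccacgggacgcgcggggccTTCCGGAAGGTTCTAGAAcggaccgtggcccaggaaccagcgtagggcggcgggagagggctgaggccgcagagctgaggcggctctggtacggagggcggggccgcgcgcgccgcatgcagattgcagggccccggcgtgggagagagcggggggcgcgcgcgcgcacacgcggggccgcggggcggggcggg
Chordc1: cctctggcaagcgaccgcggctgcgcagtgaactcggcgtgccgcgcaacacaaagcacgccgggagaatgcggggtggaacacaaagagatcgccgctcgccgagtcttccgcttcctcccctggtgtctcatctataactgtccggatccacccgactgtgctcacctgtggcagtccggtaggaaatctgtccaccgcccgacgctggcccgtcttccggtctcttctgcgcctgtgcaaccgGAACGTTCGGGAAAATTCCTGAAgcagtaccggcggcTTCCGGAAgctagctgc

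In Hsph1 the matches begin 54 bases before the start and 15 and 20 bases after it. In Hspd1 they begin 144, 139 and 134 bases before the start, and the window of Hspe1, whose gene runs the other way from the same place, covers the same stretch on the other strand. The 4 called chaperones with such a run therefore hold 3 separate stretches. In Chordc1 they begin 4 bases before and 1, 6, 11 and 33 bases after the start. A run of 3 units (GAANNTTCNNGAA or TTCNNGAANNTTC, on either strand, each holding overlapping 2-unit matches) lay in the windows of 4 of the 13 called chaperones with a RefSeq window (30.8%), against 1 of 75 other chaperone genes (1.33%), 0 of 13 other called lower genes, 0 of 23 called higher genes and 0.534% of 8801 tested genes. It lay in 0.603% of all 32851 windows. Matches to 2 units lay in the windows of 7 of the 13 (53.8%), 16 of the 75 (21.3%), 4 of the 13 other called lower genes (30.8%), 3 of the 23 called higher genes (13%) and 14% of the tested genes, and in 15.1% of all windows. A match describes the letters and is not evidence of binding. Hsp90aa1, Hsp90ab1, Hspa8 and St13 had no window to search. Hsf1 itself had 37.4 to 46.2 CPM in KO and 40.6 to 48.1 CPM in WT (−0.04 ± 0.11, adjusted p = 0.924).

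Cytosolic HSP90 and its co-chaperones held 8 called genes of 17, all lower (against 0.32% lower over all genes; median −0.36). Hsp90aa1, the inducible HSP90, stood at 961, 649, 764 and 654 CPM in KO and at 2095, 1692, 1545 and 1688 CPM in WT (−1.21 ± 0.15, adjusted p = 0.00243). Hsp90ab1, the constitutive one, stood at 2011, 1714, 1796 and 1747 CPM in KO and at 3378, 4188, 3183 and 3642 CPM in WT (−0.99 ± 0.12, adjusted p = 0.00243). In both genes every KO library lay below every WT library, as in all 17 called chaperones. Stip1, known as HOP, which hands clients of HSP70 to HSP90, had 185, 146, 118 and 164 CPM in KO and 366, 536, 321 and 439 CPM in WT (−1.44 ± 0.18, adjusted p = 0.00235).

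Ahsa1 and Ahsa2, activators of the HSP90 ATPase, were both lower. Ahsa1 had 96.6, 85.0, 82.2 and 83.0 CPM in KO and 171, 187, 153 and 199 CPM in WT (−1.03 ± 0.11, adjusted p = 0.0009). Ahsa2 had 46.8, 35.2, 32.6 and 37.9 CPM in KO and 67.8, 90.4, 88.9 and 109 CPM in WT (−1.23 ± 0.16, adjusted p = 0.00243), though 55.2% of its transcript lies within that of Usp34, so its value is uncertain. Chordc1, a zinc-binding co-chaperone of HSP90, had 55.6, 50.9, 44.3 and 60.6 CPM in KO and 87.3, 133, 119 and 131 CPM in WT (−1.16 ± 0.15, adjusted p = 0.00243). WT lung replicate 1 was the lowest WT library for Chordc1 and Ahsa2. Fkbp4, an immunophilin that docks on HSP90 of steroid receptor complexes, had 167, 140, 136 and 143 CPM in KO and 278, 332, 238 and 309 CPM in WT (−0.98 ± 0.12, adjusted p = 0.00243). Ptges3, the p23 protein that holds HSP90 in its closed form, had 113, 89.3, 97.9 and 101 CPM in KO and 178, 176, 179 and 197 CPM in WT (−0.86 ± 0.10, adjusted p = 0.00205). These 8 calls held whichever library was left out.

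Among HSP70, HSP110 and HSP40 genes 5 of 33 were called, all lower, against 0.32% lower over all genes (list median −0.24). Hsph1, an HSP110 that releases nucleotide from HSP70, stood at 225, 124, 117 and 108 CPM in KO and at 293, 618, 551 and 641 CPM in WT (−1.87 ± 0.28, adjusted p = 0.00646, and 0.0517 without KO lung replicate 2). KO lung replicate 1 was the highest KO library and WT lung replicate 1 the lowest WT library, so the gap between the groups was set by these libraries. Dnaja1, a J-protein that delivers clients to HSP70, had 367, 265, 292 and 281 CPM in KO and 533, 559, 688 and 633 CPM in WT (−1.0 ± 0.13, adjusted p = 0.00307). St13, the HSP70-interacting protein HIP, had 137, 110, 112 and 126 CPM in KO and 198, 275, 202 and 254 CPM in WT (−0.94 ± 0.13, adjusted p = 0.00527). The remaining members of the group depended more on which libraries were kept. Dnaja4 had 55.4, 44.8, 51.4 and 38.1 CPM in KO and 71.4, 89.8, 76.9 and 88.9 CPM in WT (−0.79 ± 0.13, adjusted p = 0.0192, largest 0.112 with a library left out), and 52.6% of its transcript overlaps Wdr61. Hspa8, the constitutive HSP70, had 3241, 2627, 2703 and 2463 CPM in KO and 4605, 4995, 3901 and 4879 CPM in WT (−0.74 ± 0.13, adjusted p = 0.0272, largest 0.15). The count of the group ran between 2 without KO lung replicate 2 and 8 without WT lung replicate 1, and was 3 without KO lung replicate 3 or 4 or WT lung replicate 2 or 4. Hspa4l, another HSP110, just missed (30.1, 26.9, 23.1 and 21.7 CPM in KO, 30.1, 65.6, 50.4 and 65.5 CPM in WT, adjusted p = 0.0505) and passed without WT lung replicate 1 (−1.25, adjusted p = 1.48e-05).

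**Figure D3:**
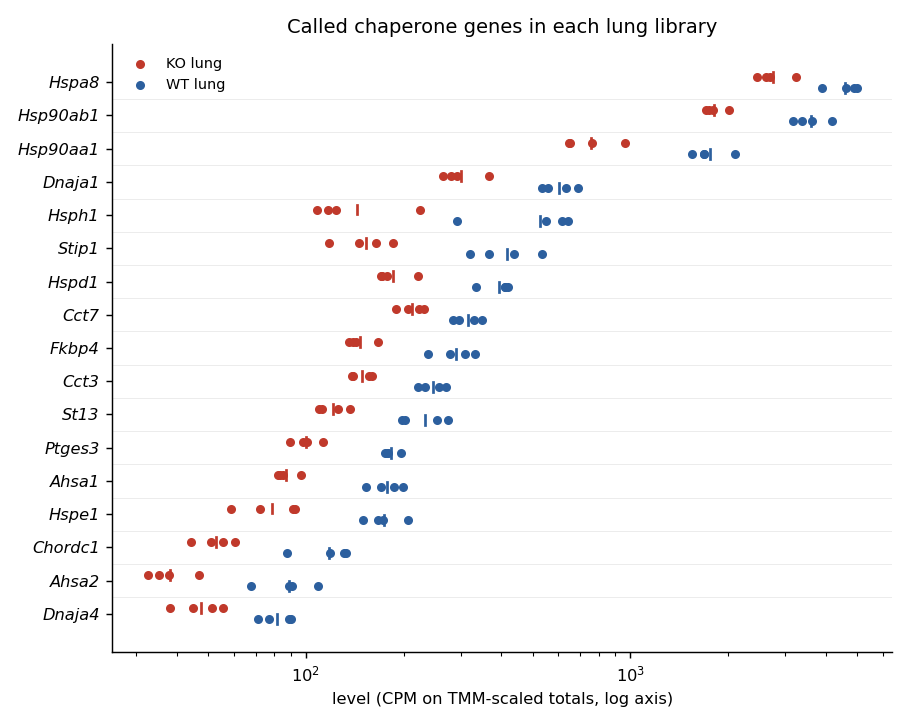
Level of the 17 called chaperone genes in each lung library (CPM on TMM-scaled totals, log axis). Red points are the 4 KO libraries, set above the 4 WT libraries in blue, and vertical bars are group means. No KO point reaches a WT point in any of the 17 genes, and Hsph1 has a highest KO value of 225 CPM and a lowest WT value of 293 CPM.

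In the mitochondrial chaperone list 2 of 16 genes were called lower, against 0.32% over all genes. They were those of the partners HSP60 and HSP10, which share a promoter region on chromosome 1. Hspd1 (HSP60) stood at 221, 171, 178 and 172 CPM in KO and at 335, 412, 420 and 412 CPM in WT (−1.09 ± 0.12, adjusted p = 0.00124). Hspe1 (HSP10) stood at 92.5, 59.0, 91.1 and 72.1 CPM in KO and at 207, 167, 150 and 173 CPM in WT (−1.14 ± 0.16, adjusted p = 0.00377). The list's median was −0.11, so the other members lay nearer to zero. Of 13 chaperonin and prefoldin genes 2 were called lower, against 0.32% over all genes, and 12 lay below zero (list median −0.47). Cct3, a TRiC subunit, had 157, 140, 139 and 160 CPM in KO and 270, 258, 233 and 222 CPM in WT (−0.72 ± 0.11, adjusted p = 0.00646). Cct7, another subunit, had 231, 190, 224 and 207 CPM in KO and 350, 330, 285 and 297 CPM in WT (−0.57 ± 0.11, adjusted p = 0.0422). Cct8 narrowly missed (−0.47 ± 0.09, adjusted p = 0.0505). None of the list passed without KO lung replicate 2 or 3, where the largest adjusted p were 0.0517 for Cct3 and 0.209 for Cct7 over the leave-outs, and 8 were lower without WT lung replicate 1.

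Chaperones of the endoplasmic reticulum, induced by the unfolded protein response, did not pass in any of 23 genes, though their median was −0.31 and 20 lay below zero. Hsp90b1 (GRP94) had 605, 558, 592 and 664 CPM in KO and 863, 1120, 818 and 865 CPM in WT (−0.60 ± 0.13, adjusted p = 0.0633). Hspa5 (BiP) stood at −0.45 ± 0.12 (adjusted p = 0.153). The 2 genes had no overlap between groups. Without WT lung replicate 1, 7 of the 23 were lower, Hsp90b1 (−0.63, adjusted p = 0.00261) and Hspa5 (−0.46, adjusted p = 0.0143) among them. None of 8 heat shock factors and small heat shock proteins passed, with Hspb1 at −1.76 ± 0.40 (adjusted p = 0.0897), and 1 passed without that library.

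Of the 9 called lower genes with predicted names, 8 are close copies of 5 of these chaperones, so the reads of parent and copy may be divided between them. Gm7816 and Gm15542 match Dnaja1 over 1194 bases at 99.3 and 99.4% identity. Gm5844 and Gm12346 match Hsp90aa1 at 98.5 and 99.5%, Gm15459 and AC111044.1 match Hspa8 at 99.7 and 98.7%, Gm9769 matches Ptges3 at 100% over 480 bases and Gm12141 matches Hspd1 at 99.0%. Gm7816 stood at 18.9, 17.6, 17.8 and 26.1 CPM in KO and at 51.7, 60.2, 59.8 and 63.5 CPM in WT (−1.55 ± 0.14, adjusted p = 0.000268). The differences of the other 7 ran between −1.62 and −0.69. Gm12141 lost its call in 7 of the 8 leave-outs (largest adjusted p 0.14), AC111044.1 in 5 (0.161), Gm15459 and Gm9769 in 3 (0.0676 and 0.0684) and Gm12346 in 1 (0.0553). Counted together, chaperones and copies were 25 of the 42 lower genes.

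Other lower genes had varied roles. Cacybp, a calcium-regulated partner of ubiquitin ligases, had 74.2, 56.2, 60.0 and 63.9 CPM in KO and 146, 137, 144 and 143 CPM in WT (−1.16 ± 0.11, adjusted p = 0.000268), with the WT libraries within 137 to 146 CPM. Bpnt1, a phosphatase of bisphosphate nucleotides, had 12.6, 9.61, 8.86 and 10.6 CPM in KO and 25.7, 32.5, 25.0 and 28.7 CPM in WT (−1.43 ± 0.15, adjusted p = 0.000749). Cacybp and Bpnt1 both lie on the chromosome of Fcer1g, at −11.03 and 14.1 Mb from its start. Tmem33, a membrane protein of the endoplasmic reticulum, differed by −0.86 ± 0.12 (adjusted p = 0.00633) and Ubfd1, a ubiquitin-like domain protein, by −0.76 ± 0.11 (adjusted p = 0.00599). P4ha1, a prolyl hydroxylase of collagen, stood at −1.33 ± 0.22 (adjusted p = 0.0173), with a largest adjusted p of 0.0841 when a library was left out. Ubqln1, a shuttle to the proteasome, the endosomal sorting protein Snx3, the RNA-binding Fxr1, the scramblase Plscr1 and BC035044 differed by −0.63 to −0.50, and each lost its call in 7 of the 8 leave-outs. None of 32 proteasome genes passed, against 0.625% of all genes tested. Their median was −0.22 with all libraries and −0.07 without WT lung replicate 1.

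The genes higher in KO away from Fcer1g included Il7r, Kit, Cd3g and Ahr. Il7r, the α chain of the IL-7 receptor, kept low in mature NK cells, stood at 45.0, 64.0, 82.4 and 71.0 CPM in KO and at 20.7, 28.7, 21.5 and 22 CPM in WT (1.49 ± 0.18, adjusted p = 0.00205, largest 0.0147 with a library left out). KO lung replicate 1 was the lowest KO library, still above every WT library. Kit, the receptor of stem cell factor, had 55.1, 71.5, 60.8 and 56.0 CPM in KO and 38.1, 40.0, 31.5 and 39.7 CPM in WT (0.71 ± 0.12, adjusted p = 0.0223, largest 0.109). Cd3g, the CD3 γ chain, which immature NK cells and T cells transcribe, had 8.52, 7.33, 9.71 and 9.33 CPM in KO and 4.08, 4.51, 3.81 and 2.42 CPM in WT (1.24 ± 0.23, adjusted p = 0.0353, largest 0.148). T cell markers overlapped in sum, at 334 to 447 CPM in KO and 272 to 375 CPM in WT (exact permutation p = 0.114, adjusted 0.277). Of their 12 genes 2 did not overlap, Cd3g and Cd28, against 8.72% of all genes tested. The part of T cells in the Cd3g and Il7r results was not tested.

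Of 20 immature NK cell genes 4 were higher, against 0.305% over all genes, and none lower, with a median of 0.28. The 4 were Il7r, Kit, Cd3g and Slamf6, the last of them also counted among the calls near Fcer1g. That count was 8 without WT lung replicate 1, where Emb, Cxcr3, Ltb and Ctla2a joined, and 2 without any of KO lung replicates 2, 3 and 4 or WT lung replicates 2, 3 and 4. Of 23 genes of ILC1 cells and tissue residency 3 were higher (Il7r, Cd3g and Ahr), against 0.305% over all genes, and none lower. Il7r and Cd3g are also on the immature NK cell list. The median of the ILC1 and residency list was 0.32, and its count of higher genes ran between 1 and 7 over the leave-outs. Without WT lung replicate 1, 7 were higher and 3 lower. Ahr, a ligand-gated transcription factor needed by several innate lymphocytes, had 15.8, 18.3, 20.4 and 20.7 CPM in KO and 8.39, 9.65, 11.4 and 12.2 CPM in WT (0.85 ± 0.16, adjusted p = 0.0382, largest 0.164). Rora, a nuclear receptor of ILC2 and other innate lymphocytes, just missed, with 45.2, 44.5, 52.3 and 50.9 CPM in KO and 32.9, 34.3, 34.0 and 35.5 CPM in WT (0.50 ± 0.10, adjusted p = 0.0562). The ILC1 integrin Itga1 stood at −0.13 ± 0.23 (adjusted p = 0.862), and without Il7r the ILC1 markers overlapped, at 30.7 to 42.3 CPM in KO and 20.2 to 34.6 CPM in WT. The NK cell factors Eomes and Tbx21 stood at 0.03 ± 0.10 and −0.10 ± 0.11 (adjusted p = 0.929 and 0.751). None of 20 genes of mature NK cells passed (median −0.14), against 0.625% of all genes tested.

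Socs2, Clnk, Rltpr and Gp49a were also called higher in KO. Socs2, a brake on cytokine receptors that STAT5 induces, stood at 15.3, 19.7, 20.6 and 25.1 CPM in KO and at 8.39, 10.4, 8.48 and 8.74 CPM in WT (1.16 ± 0.17, adjusted p = 0.00673). Clnk, an adaptor related to SLP-76, had 26.0, 24.0, 23.8 and 24.9 CPM in KO and 13.4, 16.7, 13.0 and 15.7 CPM in WT (0.74 ± 0.13, adjusted p = 0.0192, largest 0.0887 with a library left out). Rltpr, which links CD28 to the actin skeleton in T cells, had 18, 20.1, 19.3 and 18.9 CPM in KO and 7.06, 10.2, 11.9 and 11.5 CPM in WT (0.89 ± 0.17, adjusted p = 0.0353, largest 0.158). For Clnk and Rltpr the KO libraries lay within a narrow band above all WT libraries. Gp49a, a receptor of the leukocyte immunoglobulin-like family, had 31.3, 40.2, 35.3 and 36.9 CPM in KO and 16.3, 20.0, 21.8 and 23 CPM in WT (0.82 ± 0.13, adjusted p = 0.0134, largest 0.0808). Of 32 genes of IL-2, IL-7 and IL-15 signalling and STAT5 response, Il7r and Socs2 were the 2 called, against 0.305% higher over all genes. The list's median was 0.01, and 4 further genes were lower without WT lung replicate 1. Il2rb, the receptor chain that IL-2 and IL-15 share, stood at 0.02 ± 0.14 (adjusted p = 0.975) and Cish, another STAT5 target, at 0.05 ± 0.15 (adjusted p = 0.929).

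**Figure D4:**
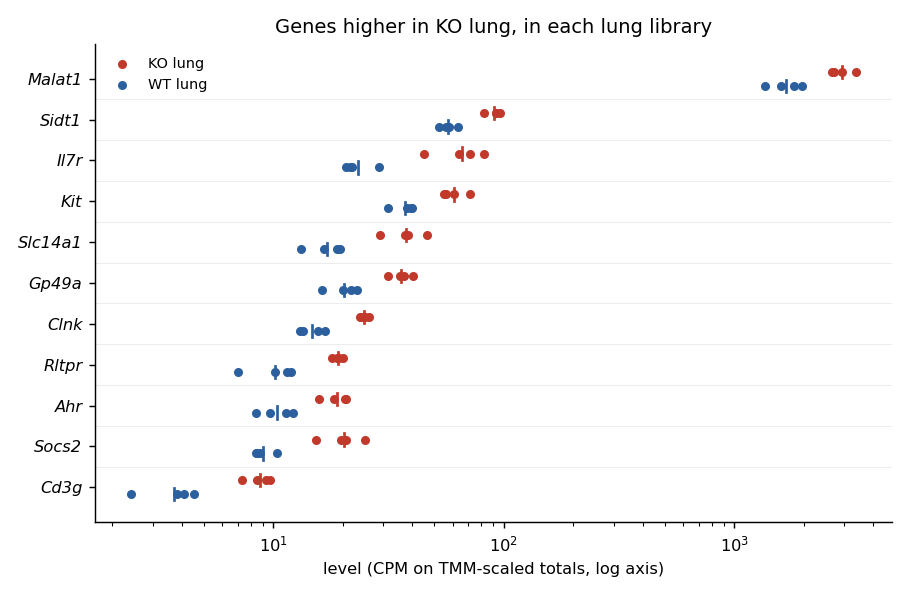
Level of 11 genes called higher in KO lung away from Fcer1g, in each library (CPM on TMM-scaled totals, log axis). Red points are the 4 KO libraries, set above the 4 WT libraries in blue, and vertical bars are group means. All KO points lie to the right of all WT points in each gene, with Il7r spread between 45.0 and 82.4 CPM in KO and between 20.7 and 28.7 CPM in WT.

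Genes with other roles were also higher. Prrc1, a protein of the secretory pathway, had 60.2, 65.0, 62.8 and 60.7 CPM in KO and 33.0, 32.9, 32.3 and 34.6 CPM in WT (0.90 ± 0.09, adjusted p = 0.000631). Slc14a1, a urea transporter, had 29.0, 37.2, 46.2 and 38.5 CPM in KO and 16.6, 18.9, 19.5 and 13.2 CPM in WT (1.15 ± 0.17, adjusted p = 0.00636). Sidt1, a membrane protein linked to RNA uptake, had 81.8, 92.8, 92.7 and 96.0 CPM in KO and 57.8, 56.0, 52.3 and 63.0 CPM in WT (0.66 ± 0.10, adjusted p = 0.00865, largest 0.0613). Prrc1 varied little within each group. On chromosome 12, Srp54b and Srp54c, which encode the GTPase of the signal recognition particle, were higher with their neighbour Fam177a, all within positions 55089202 to 55189213. Srp54b had 58.3, 67.1, 72.4 and 71.4 CPM in KO and 32.1, 37.9, 39.2 and 30.9 CPM in WT (0.94 ± 0.12, adjusted p = 0.00243). Srp54c had 18.8, 26.1, 19.9 and 22.9 CPM in KO and 10.7, 8.70, 8.33 and 9.18 CPM in WT (1.26 ± 0.15, adjusted p = 0.00235). Fam177a had 46.7, 42.7, 42.0 and 45.1 CPM in KO and 25.4, 21.6, 26.6 and 25.4 CPM in WT (0.84 ± 0.11, adjusted p = 0.00254). Each of these genes has a nearly identical copy (99.6 to 100% over at least 81.0% of the transcript), so the values of the single copies are uncertain.

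Close copies also make the values uncertain for 5 predicted genes on chromosome 2, between positions 175422300 and 176719085, and for the histone gene Hist1h4m, all higher in KO. Hist1h4m stood at 1.58, 1.94, 2.65 and 5.49 CPM in KO with no count in WT, at least 85.6-fold higher on the same floor of 3 counts. Gm14308 also had no count in WT and was at least 62.6-fold higher, though its call was lost in 4 leave-outs (largest adjusted p 0.0755). Malat1, an abundant nuclear RNA, had 2716, 3378, 2663 and 2929 CPM in KO and 1969, 1599, 1356 and 1807 CPM in WT (0.80 ± 0.14, adjusted p = 0.026, largest 0.132). Nmnat2, an enzyme of NAD synthesis whose gene is on the chromosome of Fcer1g, differed by 2.27 ± 0.39 (adjusted p = 0.0192, largest 0.107). Met, the receptor of hepatocyte growth factor, had 0.600, 3.19, 2.82 and 1.88 CPM in KO and 0, 0, 0.149 and 0.145 CPM in WT, few counts in any library (4.54 ± 0.85, adjusted p = 0.0353, largest 0.158). The sugar transporter family member Slc2a6, the lysosomal sulfatase Sgsh, the sodium-proton exchanger Slc9a8 and Frmd4b differed by 0.55 to 0.62 and lost their calls in 6 or 7 of the 8 leave-outs.

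The mitochondrial genome encodes subunits of the respiratory chain and the ribosomal RNAs of the organelle. Its genes took 8.66, 10.7, 8.49 and 8.83% of counts in KO lung and 4.70, 4.96, 3.17 and 6.14% in WT lung. The groups did not overlap, and the difference was 4.44 percentage points (9.18 ± 1.05% and 4.74 ± 1.22%, SD, n = 4 each; exact permutation p = 0.0286, the smallest possible, adjusted over 17 tests 0.122). Of 15 mitochondrially encoded genes 5 were called higher, against 0.305% of all genes, and all 15 lay above zero (median 1.01). mt-Co1, a subunit of cytochrome c oxidase, had 23092, 30285, 23701 and 23342 CPM in KO and 10952, 12872, 7977 and 15735 CPM in WT (1.08 ± 0.19, adjusted p = 0.0279). mt-Nd1, a subunit of complex I, had 4318, 5450, 4299 and 4477 CPM in KO and 2399, 2398, 1423 and 2992 CPM in WT (1.01 ± 0.20, adjusted p = 0.0424). For both genes KO lung replicate 2 was highest and WT lung replicate 3 lowest, the same libraries that were highest and lowest for macrophage markers (618 and 56.7 CPM). For the ribosomal RNA genes mt-Rnr1 and mt-Rnr2, KO lung replicate 2 was instead the lowest KO library (1767 and 10342 CPM). KO lung replicate 3, second for macrophage markers (343 CPM), had the lowest mitochondrial share in KO (8.49%). The part of macrophages in the mitochondrial result was not tested.

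mt-Atp8, a subunit of ATP synthase, had 537, 792, 444 and 622 CPM in KO and 255, 330, 156 and 307 CPM in WT (1.19 ± 0.23, adjusted p = 0.0405). The ribosomal RNA gene mt-Rnr1 had 1853, 1767, 1814 and 1914 CPM in KO and 1199, 963, 757 and 1274 CPM in WT (0.81 ± 0.16, adjusted p = 0.0405), and mt-Rnr2 had 11096, 10342, 10376 and 11522 CPM in KO and 6295, 5667, 4349 and 7721 CPM in WT (0.85 ± 0.16, adjusted p = 0.0405). In these genes, too, every KO library lay above every WT library. The calls depended on which libraries were kept. None of the 15 passed without any one KO library, without WT lung replicate 2 or in the fit of all 24 libraries. Without WT lung replicate 1, 14 passed, as did 6 without WT lung replicate 3 and 9 without WT lung replicate 4. Over the leave-outs the log2 difference stayed between 0.93 and 1.24 for mt-Co1 and between 0.72 and 0.99 for mt-Rnr2. Nuclear genes of oxidative phosphorylation, which make the partner subunits, had no call among 47 genes, and their median was −0.19 with all libraries and 0.02 without WT lung replicate 1.

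The lists of granule, cytokine, receptor, TGFβ and MHC class I genes in this paragraph held no called gene. The called Fcer1g, Cd244, Slamf6 and EAT-2 adaptors, described above, are on other lists. Over all genes tested 0.625% were called, so lists this short can lack a call without differing from other genes. None of 23 granule and death ligand genes passed (median −0.09): Gzma had 4775, 3592, 4722 and 4154 CPM in KO and 7917, 5805, 4771 and 4816 CPM in WT (−0.43 ± 0.17, adjusted p = 0.374), overlapping through the 4771 CPM of WT lung replicate 3, and Gzmb stood at −0.37 ± 0.15 (adjusted p = 0.379). None of 18 cytokine and chemokine genes passed (median −0.13, and 0.09 without WT lung replicate 1). Ccl4, a chemokine of activated NK cells, had 480, 477, 438 and 440 CPM in KO and 1205, 640, 657 and 602 CPM in WT (−0.76 ± 0.20, adjusted p = 0.157), without overlap and with WT lung replicate 1 far above the other WT libraries. Ccl6 stood at 1.23 ± 0.29 (adjusted p = 0.104). No gene passed among 11 Ly49 receptors (median −0.03, Klra4 at −0.47 ± 0.16, adjusted p = 0.289), 15 other lectin-like receptors, 17 checkpoint receptors (median 0.2), 18 TGFβ pathway genes, 18 chemokine receptors and egress genes, 13 receptors of IL-12, IL-18 and interferon signalling or 21 MHC class I genes. A gene that missed the threshold is not shown to be equal in both genotypes.

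Lists of growth, metabolism and immediate early genes were likewise without calls, against 0.625% called over all genes tested. Of 48 genes of mitosis and S phase none passed, although 44 lay below zero (median −0.33), with Pcna, the clamp of DNA polymerase, at 154, 157, 159 and 157 CPM in KO and 249, 202, 211 and 170 CPM in WT (−0.41 ± 0.12, adjusted p = 0.203). None of 34 MYC and ribosome biogenesis genes (median −0.13), 26 glycolysis and hypoxia genes, 28 sterol and fatty acid genes, 20 BCL-2 family genes, 13 nutrient transporters, 14 clock genes or 13 cold-responsive RNA-binding genes passed. Among 32 immediate early genes, which stimulation and handling of cells both induce, none passed (median −0.03): Egr2 stood at −0.97 ± 0.22 (adjusted p = 0.0837) and Fos at 0.03 ± 0.12 (adjusted p = 0.945). None of 45 interferon-stimulated genes passed (median 0.14). Of 35 transcription factors, Ahr alone was called, against 0.305% higher over all genes. Without WT lung replicate 1 a few of the lists without calls gained some: checkpoints had 3 higher and 1 lower, cytokines and chemokines 2 higher and 1 lower, chemokine receptors 2 higher, BCL-2 family genes 2 lower, and immediate early, TGFβ, interferon-stimulated, oxidative phosphorylation and proteasome genes 1 or 2 each. Over all genes, 1.87% were higher and 1.47% lower without that library.

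The KO effect in lung was then set beside that in naive and IL-15-treated spleen in a fit of all 24 libraries (14275 genes tested), in which the 3 comparisons share no library. In naive spleen 2898 genes were called (20.3%, with 12.3% higher and 7.99% lower) and in IL-15-treated spleen 25 (0.175%, with 0.126% higher and 0.049% lower). The lung calls counted here are the 82 of the 8 lung libraries fitted alone, and the spleen calls are those of the 24-library fit. Of the 82, 66 were called in the same direction in naive spleen and 0 in the opposite direction. The 66 are 80.5% of the lung calls and 2.28% of the naive calls. The 66 were 41 of the 42 lower genes and 25 of the 40 higher genes. The 16 that were not called there were Ifi204, Il7r, Sh2d1b1, Gp49a, Clnk, Malat1, Met, Rltpr, Ahr, the 5 mitochondrial genes and the predicted Gm5844 and Gm9765. Il7r, for example, stood at 0.61 in naive spleen (adjusted p = 0.051) and at 0.83 under IL-15 (adjusted p = 0.447), and mt-Co1 at 0.11 and 0.07 (adjusted p = 0.888 and 1.0). In the 24-library fit Gp49a, Clnk, Malat1, Met, Gm5844 and the 5 mitochondrial genes did not pass in lung either. Their adjusted p for lung there ran from 0.0734 to 0.475, so they are not shown to be particular to lung. In IL-15-treated spleen 17 of the 82 were called the same way (20.7% of the lung calls and 68.0% of the IL-15 calls) and Fcgr2b the opposite way, and 11 of these 18 lie within 10 Mb of Fcer1g. The genes called the same way in all 3 states were 16, among them Fcer1g, Gm4955, Itln1, Pyhin1, Pydc4, Slamf6, Cd244, Sh2d1b2, Fcrl6, Prrc1 and Srp54b.

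The 17 chaperones called in lung were chosen by these same lung libraries, so their lung values were low by that choice. In the fit of 24 libraries they differed between KO and WT by −1.87 to −0.57 in lung (median −1.0). In naive spleen they differed by −2.45 to −0.47 (median −1.22, all 17 called lower), and under IL-15 by −0.32 to 0.06 (median −0.04, none called). Lung and IL-15-treated spleen differ in tissue, tumour and treatment, which cannot be told apart here. Stip1 averaged 163 ± 30.1 CPM in KO and 442 ± 100 CPM in WT lung, 78.7 ± 21.6 CPM in KO and 224 ± 45.5 CPM in WT naive spleen, and 122 ± 7.6 CPM in KO and 118 ± 5.2 CPM in WT IL-15-treated spleen (SD, n = 4 each, CPM scaled over the 24 libraries). Hsp90ab1 averaged 1932 ± 144 CPM in KO and 3827 ± 469 CPM in WT lung, 1148 ± 19.8 CPM in KO and 2071 ± 229 CPM in WT naive spleen, and 1997 ± 139 CPM in KO and 1976 ± 127 CPM in WT IL-15-treated spleen. Both genes thus had KO below WT in lung and naive spleen, and overlapping means under IL-15.

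**Figure D5:**
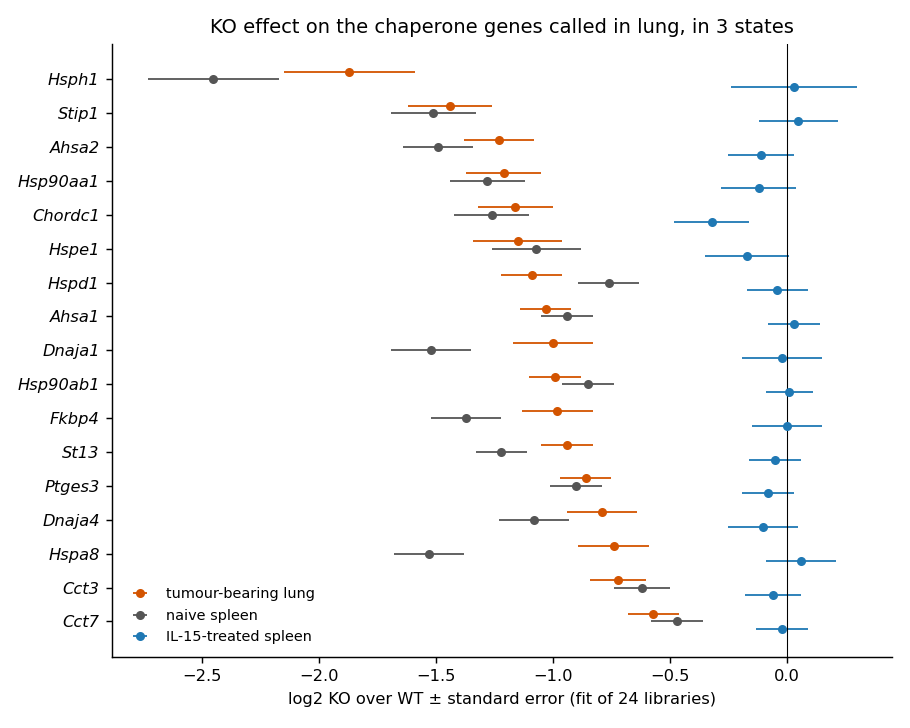
Difference between KO and WT (log2 ± standard error, fit of 24 libraries) for the 17 chaperone genes called in lung, in tumour-bearing lung (orange), naive spleen (grey) and IL-15-treated spleen (blue). Lung and naive values lie together between −2.45 and −0.47, and IL-15 values lie around zero, between −0.32 and 0.06.

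Whether the KO effect itself differed between states was tested as an interaction. Between lung and IL-15-treated spleen it differed for 13 genes (0.0911% of those tested, 1 or 0.00701% higher and 12 or 0.0841% lower in lung), all of them called in lung and 9 of them chaperones. The lower genes were 6 without KO lung replicate 2, and the higher genes 3 without KO lung replicate 1. The differences of the log2 KO effects were −1.07 ± 0.16 for Ahsa1 and −1.0 ± 0.15 for Hsp90ab1 (adjusted p = 0.00222 each), −1.49 ± 0.24 for Stip1 (adjusted p = 0.00878), −1.05 ± 0.19 for Hspd1 (0.0116) and −0.89 ± 0.16 for St13 (0.0114). Ahsa2 (−1.12, adjusted p = 0.0147), Ptges3 (−0.78, 0.0311), Hsph1 (−1.9, 0.0452) and Hsp90aa1 (−1.1, 0.0452) completed the 9. With a lung library left out, Ahsa1, Hsp90ab1 and Stip1 always passed, while the largest adjusted p was 0.0507 for St13 and Hspd1 (without KO lung replicate 2), 0.0639 for Ahsa2, 0.13 for Ptges3 and 0.181 for Hsph1 and Hsp90aa1. Between lung and naive spleen none of the 17 chaperones differed (Hspa8 came closest, 0.80 ± 0.21, adjusted p = 0.0647). A p that misses the threshold does not show that the effects were alike.

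The other genes that differed from IL-15-treated spleen were Gm4955 (1.53 ± 0.26, adjusted p = 0.0089), Bpnt1 (−1.17, 0.00946), the Dnaja1 copy Gm7816 (−1.46, 0.0089) and Fcgr2b (−4.67 ± 0.31, adjusted p = 6.25e-10). Fcgr2b averaged 5.57 ± 0.511 CPM in KO and 63.6 ± 9.7 CPM in WT lung, 5.75 ± 1.51 CPM in KO and 28.8 ± 2.11 CPM in WT naive spleen, and 8.65 ± 1.11 CPM in KO and 3.84 ± 1.49 CPM in WT IL-15-treated spleen. The inhibitory Fc receptor was thus lower in KO in lung and naive spleen and higher in KO under IL-15 (1.16, adjusted p = 0.0102). Against naive spleen, 164 genes had a different KO effect in lung (1.15%, 24 or 0.168% higher and 140 or 0.981% lower in lung), 5 of them lung calls. Ifi204 differed by 2.65 ± 0.48 (adjusted p = 0.00707), with 26.0 ± 3.77 CPM in KO and 2.92 ± 1.62 CPM in WT lung, and 7.39 ± 2.34 CPM in KO and 4.95 ± 2.44 CPM in WT naive spleen. Sh2d1b1 differed by 0.95 ± 0.15 (adjusted p = 0.00401), with 71.3 ± 5.55 CPM in KO and 41.7 ± 4.81 CPM in WT lung, and 69.1 ± 6.24 CPM in KO and 77.9 ± 9.66 CPM in WT naive spleen. Neither gene was called in naive spleen (adjusted p = 0.216 for Ifi204 and 0.264 for Sh2d1b1). Fcer1g (2.14 ± 0.35, adjusted p = 0.00613), Pyhin1 (0.95 ± 0.24, 0.0445) and Fcgr2b (−1.19 ± 0.30, 0.0467) were the other 3. Pyhin1 and Fcgr2b lost this call in 7 of the 8 leave-outs (largest adjusted p 0.102 and 0.099). Fcer1g averaged 14.3 ± 1.61 CPM in KO and 595 ± 115 CPM in WT lung, and 3.77 ± 2.37 CPM in KO and 730 ± 78.8 CPM in WT naive spleen. Its difference thus lay mostly in the low counts left in KO cells.

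Most of the genes whose KO effect differed between lung and naive spleen were not called in lung, and those with the smallest p had their larger KO effect in naive spleen. Without any one of the 8 lung libraries these counts changed by over 1.5 times, to between 10 and 15 higher and between 61 and 86 lower for 7 of the libraries and to 160 higher and 410 lower without WT lung replicate 1. Myh9, the heavy chain of nonmuscle myosin, averaged 1564 ± 93.6 CPM in KO and 1369 ± 334 CPM in WT lung, but 577 ± 203 CPM in KO and 93.8 ± 38.4 CPM in WT naive spleen (difference −2.43 ± 0.35, adjusted p = 0.00171). Hnrpdl, an RNA-binding protein, averaged 256 ± 10.4 CPM in KO and 269 ± 46.0 CPM in WT lung, and 112 ± 15.1 CPM in KO and 43.3 ± 7.25 CPM in WT naive spleen (−1.45 ± 0.17, adjusted p = 0.000175). In both, WT naive spleen was the group that stood low. The RNA factors Ddx46, Upf1 and Rbm19 and the repressor Irf2bp2 showed the same pattern, with differences of −1.98 to −0.84. Ccl6, a chemokine, averaged 25.1 ± 8.26 CPM in KO and 10.8 ± 3.61 CPM in WT lung, and 0.84 ± 0.439 CPM in KO and 6.59 ± 1.24 CPM in WT naive spleen (4.2 ± 0.53, adjusted p = 0.000196), so its KO effect pointed up in lung, where it did not pass (1.22, adjusted p = 0.119), and down in naive spleen (−2.98, adjusted p = 1.91e-05). Dmrta1 (1.86) and Crem (0.93), a cAMP-responsive factor, were the next with a higher KO effect in lung.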

How the data were processed

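Poly(A) RNA of 24 mouse NK cell libraries was sequenced, and the authors deposited a table of expected counts per gene (38215 genes, 5.47% of values not whole). Per the submitters' processing notes the tools were RSEM 1.2.30, STAR 2.5.2a and cutadapt 1.9, with GRCm38 as the build; which annotation release and strand setting were used is not stated there. RSEM divides reads that fit several genes, so close copies share their values. Libraries were grouped by the labels' genotype, tissue and treatment, and none was left out or repeated another.

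Expected counts were rounded to whole numbers. Low genes were removed with filterByExpr, totals were scaled by TMM, and genes were tested by edgeR's quasi-likelihood method (edgeR 4.0.16, R 4.3.3) with Benjamini-Hochberg adjustment and a threshold of 0.05. The 8 lung libraries were fitted alone, and all 24 together for the spleen effects and the differences between states. All adjusted p-values of genes are from edgeR. The standard error is the log2 difference divided by the root of F. Log2 differences are those of the fit. A prior count of 2 was used only for log2 CPM in the principal components, the correlations of same-numbered libraries and the length and GC offset. Levels are CPM on TMM-scaled totals. Marker sums and the mitochondrial share were compared by two-sided exact permutation tests. Total counts limit precision most in the shallow library, and a floor of 3 counts covers counting error only.

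The members and gene lists were chosen with earlier results of these data known. Named genes were Fcer1g, every called gene with an official symbol, up to 3 members of each list by smallest p and, for each difference between states, the lung calls and the 6 smallest p in each direction. Fcgr3, Ncr1, Cd247, Syk, Zap70, Hsf1, Eomes, Tbx21, Il2rb, Cish, Itga1, Fos, Cd48, Ly9, Ifi203, Emb, Cxcr3, Ltb and Ctla2a were named for their role or to spell out a count, after their values were seen. Exon lengths, GC content and transcript copies (at least 95% identity over at least 100 bases) came from GENCODE M21 and promoters from RefSeq. Alternatives were DESeq2 1.42.0, its size factors, limma 3.58.1 voom with library weights, other filters, all 24 libraries, a replicate block, removal of mitochondrial genes, a length and GC offset, and each lung library left out. The test was checked on simulated data.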

Additional observations from a re-analysis of the deposited data

Results flagged for a closer look

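In 200 groups of 4 libraries, 16 had 1 library far from the other 3, where chance gives about 1 in 20. Among KO lung libraries, replicate 2 stood apart in the mitochondrial share (10.7%), mt-Co1 (30285 CPM) and mt-Nd1 (5450 CPM), replicate 1 in Hspd1 (221 CPM) and Hsph1 (225 CPM), and replicate 4 in Gm7816 (26.1 CPM) and Fcrl6 (10.2 CPM). Among WT lung libraries, replicate 1 stood apart in total counts (9.77 M), Hspd1 (335 CPM), Sgsh (24.9 CPM) and Snx3 (240 CPM). WT lung replicate 2 stood apart in Il7r (28.7 CPM), replicate 3 in summed macrophage and monocyte markers (56.7 CPM), and replicate 4 in Ptges3 (197 CPM), Gm4724 (0.108 CPM) and Slc9a8 (43.9 CPM).

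The KO effect differed between lung and naive spleen, by the test of that difference with edgeR, for 5 genes called in lung: Fcer1g (2.14), Ifi204 (2.65), Sh2d1b1 (0.95), Pyhin1 (0.95) and Fcgr2b (−1.19), on the log2 scale as lung minus naive spleen. Between lung and IL-15-treated spleen it differed for 13: Gm4955 (1.53), Fcgr2b (−4.67), Hsph1 (−1.9), Stip1 (−1.49), Gm7816 (−1.46), Bpnt1 (−1.17), Ahsa2 (−1.12), Hsp90aa1 (−1.1), Ahsa1 (−1.07), Hspd1 (−1.05), Hsp90ab1 (−1.0), St13 (−0.89) and Ptges3 (−0.78).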

How the results depend on the processing

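The number of genes higher in KO lung, 40 in the fit reported, was 68 with no filter, 62 with the length and GC offset, 128 with voom and library weights and 160 with DESeq2, and the number of genes lower in KO lung, 42 in that fit, was 74, 140 and 154 with the last 3 of these; the cause was not tested. Leaving out each lung library in turn gave 16 to 251 genes higher in KO lung and 25 to 197 genes lower in KO lung. The counts for KO effect higher in lung than in naive spleen, genes, ran from 10 to 160 and those for KO effect lower in lung than in naive spleen, genes, from 61 to 410. Against IL-15-treated spleen they ran from 1 to 3 (KO effect higher in lung than in IL-15 spleen, genes) and from 6 to 14 (KO effect lower in lung than in IL-15 spleen, genes). The difference in mitochondrial share ran from 3.91 to 4.9 percentage points, and was 3.96 without the ribosomal RNA genes. With the replicate number as a block, 30 genes were higher and 32 lower, and 52 of the 82 calls were kept. Same-numbered KO and WT libraries did not deviate together (correlations −0.004, 0.063, −0.063 and −0.073), so the numbers were not taken as pairs. Of the 82 calls, 82 were kept with DESeq2 and with its size factors, 81 with voom, 73 with the length and GC offset, 66 with all 24 libraries and 41 without KO lung replicate 2, and 39 held in all 17 settings. No called gene changed direction in any of them. Some list medians changed sign without WT lung replicate 1, such as oxidative phosphorylation (−0.19 with all libraries, 0.02 without it), cytokines and chemokines (−0.13, 0.09) and adaptors and Fc receptors (−0.06, 0.12). The median log2 difference was 0.119 for genes whose exons sum to 10 kb or more and −0.111 where they sum to less than 1.5 kb. WT lung replicate 1, at 9.77 M counts, limits what low genes can show.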
